A study of Mus musculus with 24 samples.

Results

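Collagen chain genes encode the alpha chains of the collagens, the main structural proteins of the extracellular matrix. Their 44 members were taken by symbol (Col, a type number, a and a chain number) from 21789 array rows annotated to exactly 1 gene, which cover 19938 genes. A gene with more than 1 row (*Col6a5* and *Col6a6*) was represented by its brightest row. Collagen chains wind in threes into a triple helix inside the cell, are modified and folded in the endoplasmic reticulum and are assembled outside it. Fibrillar collagens form the load-bearing fibrils of the lung, fibril-associated collagens decorate their surface, type IV collagen forms the network of epithelial and endothelial basement membranes, and type VI collagen forms beaded filaments next to them. Fibroblasts and related mesenchymal cells are known as the main source of fibrillar and type VI collagen in the lung. Alveoli are formed in the mouse after birth, by septation of simple air sacs, and collagen is laid down in the growing septa.

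The arrays measured whole lung (left lobe) RNA of untreated male mice of strain C57Bl/6N Tac, kept free of specific pathogens, at postnatal day (PND) 0, 3, 10 and 42. WT mice were compared with *Scnn1b*-Tg littermates, which overexpress the β subunit of the epithelial sodium channel from a transgene driven in airway secretory (club) cells and develop mucus obstruction of the airways. Each of the 8 groups held 3 arrays (24 in all), and each array a pool of animals: the study's methods state 3 mice per pool, while the labels list 2 animal numbers for 23 arrays and 1 for the *Scnn1b*-Tg array of PND 42 replicate 3. Replicate error therefore covers the spread between pools, and in whole lung RNA fewer cells of a type cannot be told apart from less RNA per cell. Values are normalized log2 intensities of probe sets. They allow a gene to be compared between arrays, but not the level of one gene with that of another.

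*Scnn1b*, the overexpressed gene, lay between 9.62 and 10.94 log2 in all *Scnn1b*-Tg arrays and between 6.37 and 8.22 in all WT arrays. Its mean exceeded WT by 3.04, 3.29, 3.22 and 2.93 log2 at PND 0, 3, 10 and 42 (adjusted p of 2.02e-06, 4.63e-07, 6.75e-07 and 4.85e-07). Array medians lay between 4.787 and 4.996, and arrays of the same group correlated with r of 0.9633 to 0.9956. The lung markers *Ager* (10.44 to 11.39) and *Pecam1* (8.61 to 9.67), of alveolar type I and endothelial cells, were high in all arrays. One library stood apart. *Scnn1b*-Tg PND 10 replicate 1 had 12.39 for the surfactant gene *Sftpc* against 14.03 and 13.82 in the other PND 10 arrays of its genotype, and 12.19 for the club cell gene *Scgb1a1* against 13.04 and 13.23, so the genotype differences described at PND 10 are in most cases also given without it. Here a collagen gene is called higher or lower, or said to have risen or fallen, where limma's test, with p-values adjusted over all 21789 rows by the method of Benjamini and Hochberg, gave an adjusted p of 0.05 or less and the change reached 2-fold. Of the 44 genes, 24 had a group mean above 5 log2, 14 were called in at least 1 of 15 contrasts and 30 in none.

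The 250 bases upstream of the start site are shown for the 3 chains of classical type VI collagen and, for contrast, for 2 fibrillar chain genes. For a gene with several start sites the most upstream was used. The mean levels of the 3 type VI chains did not all follow the same course after PND 3. The sequences are RefSeq's (build GRCm38.p6), written 5′ to 3′ on the gene's strand. *Col6a1* (chr10:76726045-76726294, minus strand) and *Col6a2* (chr10:76623631-76623880, minus strand) are neighbours on chromosome 10, whereas *Col6a3* (chr1:90844002-90844221, minus strand, 220 bases) lies on chromosome 1. *Col1a2* (chr6:4505368-4505617, plus strand) and *Col3a1* (chr1:45311288-45311537, plus strand) encode chains of types I and III. Capitals mark the letters of 3 short promoter motifs, each searched on both strands and at any position of the window. The first is the CCAAT box, the second the GC box, with the letters GGGCGG. The third is the TATA box, with the letters TATAAA.
Col6a1: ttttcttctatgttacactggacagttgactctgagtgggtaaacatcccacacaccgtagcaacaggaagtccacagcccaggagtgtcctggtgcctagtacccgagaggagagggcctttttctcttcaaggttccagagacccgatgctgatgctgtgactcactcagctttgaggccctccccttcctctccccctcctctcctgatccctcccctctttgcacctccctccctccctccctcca
Col6a2: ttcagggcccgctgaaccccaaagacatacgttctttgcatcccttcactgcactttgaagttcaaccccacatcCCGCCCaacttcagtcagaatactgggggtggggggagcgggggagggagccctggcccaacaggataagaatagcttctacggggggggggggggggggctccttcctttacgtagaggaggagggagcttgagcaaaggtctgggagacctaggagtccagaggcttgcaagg
Col6a3: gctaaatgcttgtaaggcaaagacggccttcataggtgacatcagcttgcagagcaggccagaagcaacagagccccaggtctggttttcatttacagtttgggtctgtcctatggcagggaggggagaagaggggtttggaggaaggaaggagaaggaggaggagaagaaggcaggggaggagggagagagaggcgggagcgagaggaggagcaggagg
Col1a2: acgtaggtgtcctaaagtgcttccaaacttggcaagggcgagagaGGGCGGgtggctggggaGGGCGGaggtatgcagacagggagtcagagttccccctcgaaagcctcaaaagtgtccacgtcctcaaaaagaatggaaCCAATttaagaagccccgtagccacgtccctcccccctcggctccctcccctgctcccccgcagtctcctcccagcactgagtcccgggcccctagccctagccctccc
Col3a1: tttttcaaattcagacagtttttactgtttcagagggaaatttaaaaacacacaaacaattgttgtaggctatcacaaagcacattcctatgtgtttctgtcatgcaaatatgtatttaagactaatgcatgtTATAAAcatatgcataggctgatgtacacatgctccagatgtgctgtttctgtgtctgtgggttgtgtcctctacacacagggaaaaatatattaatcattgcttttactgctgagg
Neither *Col6a1* nor *Col6a3* held any of these letters in its window, and *Col6a2* held 1 GC box (on the opposite strand). *Col1a2* held 1 CCAAT box and 2 GC boxes, and *Col3a1* held the letters TATAAA at 1 place. Among the 35 collagen genes with a promoter in the table, 12 held the CCAAT box (34.3%, against 34.5% of 27025 promoters), 21 the GC box (60% against 33%) and 5 the TATA box (14.3% against 13%). The 27025 promoters were not filtered by type of gene. These matches are descriptions of letters, without regard to their distance from the start site, and were not tested.

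Of the 3 age intervals, the first days after birth held the most collagen calls. Between PND 0 and PND 3, 12 of the 44 genes fell in WT lung and none rose, where 7.79% of all rows fell. In *Scnn1b*-Tg lung 10 fell and none rose, against 8% of all rows. With quantile normalization repeated on the deposited values, 8 were called in WT and 7 in *Scnn1b*-Tg. The median change of the 44 genes was -0.31 log2 in WT and -0.20 in *Scnn1b*-Tg, beside 0.06 and 0.07 over all rows. Without regard to fold, 21 collagen genes passed the adjusted p in WT (46.6% of all rows did) and 22 in *Scnn1b*-Tg (49.4%). The 3 WT arrays of PND 3 lay wholly below those of PND 0 for 23 of the 44 genes (27.1% of all rows) and wholly above for 3 (32.5%).

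Type IV collagen held the most of these calls. Of its 6 genes, 5 fell in WT (median of the 6 -1.60) and 4 in *Scnn1b*-Tg (median -1.63). *Col4a1*, which with *Col4a2* forms the basement membrane network found in nearly all tissues, had 9.40, 8.95 and 8.84 log2 in the WT arrays of PND 0 and 6.98, 7.34 and 7.07 at PND 3. No PND 3 array reached the PND 0 arrays, and the fall was -1.93 ± 0.21 (SE, n = 3 per group, adjusted p = 2.57e-07). In *Scnn1b*-Tg arrays *Col4a1* went from 9.02, 8.86 and 8.67 to 7.64, 7.09 and 6.5, again with no overlap (-1.77, adjusted p = 5.99e-07). *Col4a2*, its neighbour on chromosome 8, had 9.18, 8.89 and 8.86 in WT at PND 0 and 7.01, 7.23 and 7.05 at PND 3. Its groups did not overlap in either genotype, with changes of -1.88 ± 0.17 in WT (adjusted p = 4.11e-08) and -1.65 in *Scnn1b*-Tg (adjusted p = 1.36e-07).

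*Col4a3*, *Col4a4* and *Col4a5* encode the chains of a second type IV network, found in the basement membranes of kidney glomerulus and alveolus. *Col4a3* had 6.41, 7.02 and 7.23 in WT arrays at PND 0 and 5.15, 5.32 and 5.25 at PND 3, a fall of -1.65 ± 0.19 without overlap (adjusted p = 4.9e-07). *Col4a4* went from 7.22, 7.61 and 7.72 to 5.97, 6.01 and 5.89, with a change of -1.56 ± 0.19 (adjusted p = 9.77e-07). Every PND 3 array was below every PND 0 array for both genes, also in *Scnn1b*-Tg, where *Col4a3* fell by 1.61 and *Col4a4* by 1.68 (adjusted p of 5.59e-07 and 3.23e-07). *Col4a5* went from 6.49, 6.21 and 6.40 to 5.12, 5.14 and 5.13 in WT (-1.24 ± 0.14, adjusted p = 3.83e-07). In *Scnn1b*-Tg its arrays went from 5.77, 6.33 and 6.25 to 5.50, 5.29 and 5.34 without overlap, but the change of -0.74 was under 2-fold (adjusted p = 0.000154). *Col4a6*, which partners *Col4a5* in other basement membranes, was not called in any interval.

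The type VI chains fell with them. *Col6a1* had 9.70, 9.56 and 9.61 in WT arrays at PND 0 and 7.92, 8.20 and 7.77 at PND 3, a change of -1.66 ± 0.15 (adjusted p = 3.78e-08). *Col6a2* went from 8.98, 8.86 and 8.86 to 7.16, 7.25 and 6.98, with a change of -1.77 ± 0.16 (adjusted p = 3.31e-08). *Col6a3* went from 8.65, 8.17 and 8.14 to 6.73, 6.58 and 6.95 (-1.56 ± 0.20, adjusted p = 2.07e-06). The groups of PND 0 and PND 3 were apart for all 3 chains in WT. In *Scnn1b*-Tg, *Col6a1* fell by 1.18 (adjusted p = 1.81e-06), *Col6a2* by 1.06 (adjusted p = 1.33e-05) and *Col6a3* by 1.68 (adjusted p = 7.69e-07). The other beaded-filament genes, *Col6a4*, *Col6a5* and *Col6a6*, were not called in any interval.

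Transmembrane collagens are anchored in the cell surface by a hydrophobic stretch near the amino end. *Col13a1*, a chain of cell adhesion sites, had 6.65, 6.78 and 6.70 in WT arrays at PND 0 and 5.41, 5.62 and 5.05 at PND 3, and stayed between 5.07 and 5.29 at PND 10 and PND 42. *Col25a1*, known from neurons, went from 5.78, 5.13 and 5.21 to 4.23, 4.51 and 4.14. Both were lower in every array after PND 0 than in any array of PND 0, in both genotypes. The changes in WT were -1.35 ± 0.14 (adjusted p = 1.67e-07) for *Col13a1* and -1.08 ± 0.14 (adjusted p = 2.58e-06) for *Col25a1*. In *Scnn1b*-Tg they were -1.04 (adjusted p = 3.55e-06) and -1.06 (adjusted p = 3.08e-06).

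Among the 11 fibrillar genes *Col5a2* alone was called between PND 0 and PND 3, and that in WT. Type V collagen is incorporated in type I fibrils and is known to regulate their diameter. *Col5a2* had 7.39, 7.53 and 7.67 at PND 0 and 6.32, 6.24 and 6.68 at PND 3 in WT (-1.12 ± 0.19, adjusted p = 4.46e-05), against a change of -0.92 in *Scnn1b*-Tg (adjusted p = 0.000357, under 2-fold). *Col1a1* and *Col1a2*, the chains of type I collagen, passed the adjusted p in WT with changes just under 2-fold: -0.98 ± 0.20 (adjusted p = 0.000458) and -0.83 ± 0.17 (adjusted p = 0.000542). *Col5a1* (-0.92, adjusted p = 6.19e-06) and *Col3a1* (-0.73 ± 0.18, adjusted p = 0.00231) did likewise, *Col3a1* being named after its values were seen. *Col1a1* had 9.82, 9.91 and 9.88 in WT arrays at PND 0 and 8.91, 8.56 and 9.21 at PND 3, without overlap. *Col2a1*, *Col11a1* and *Col11a2*, the cartilage fibril genes, were called in no contrast. Of 11 cartilage markers none was called between PND 0 and PND 3 or between the genotypes, *Chad* rose in WT from PND 10 to PND 42 (1.23), and *Hapln1* (-2.16) and *Sox9* (-1.11) were lower in WT at PND 42 than at PND 0. *Matn1* and *Cnmd* lay at 3.21 to 3.85 and 3.41 to 4.01 in all arrays.

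Of the 9 fibril-associated genes, *Col12a1* was the member called in this interval, and 6 of the 9 had no group mean above 5 log2. Type XII collagen binds the surface of type I fibrils in tissues under tension. *Col12a1* had 5.83, 6.42 and 6.39 in WT at PND 0 and 5.02, 5.04 and 5.42 at PND 3, a fall of -1.06 ± 0.22 without overlap (adjusted p = 0.00053). In *Scnn1b*-Tg the arrays went from 6.31, 6.91 and 6.62 to 5.41, 5.01 and 4.85, also without overlap (-1.52, adjusted p = 8.65e-06). *Col14a1*, a related chain, had a WT change of -0.995, or 1.993-fold (adjusted p = 0.000698), and was not called.

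**Figure D1:**
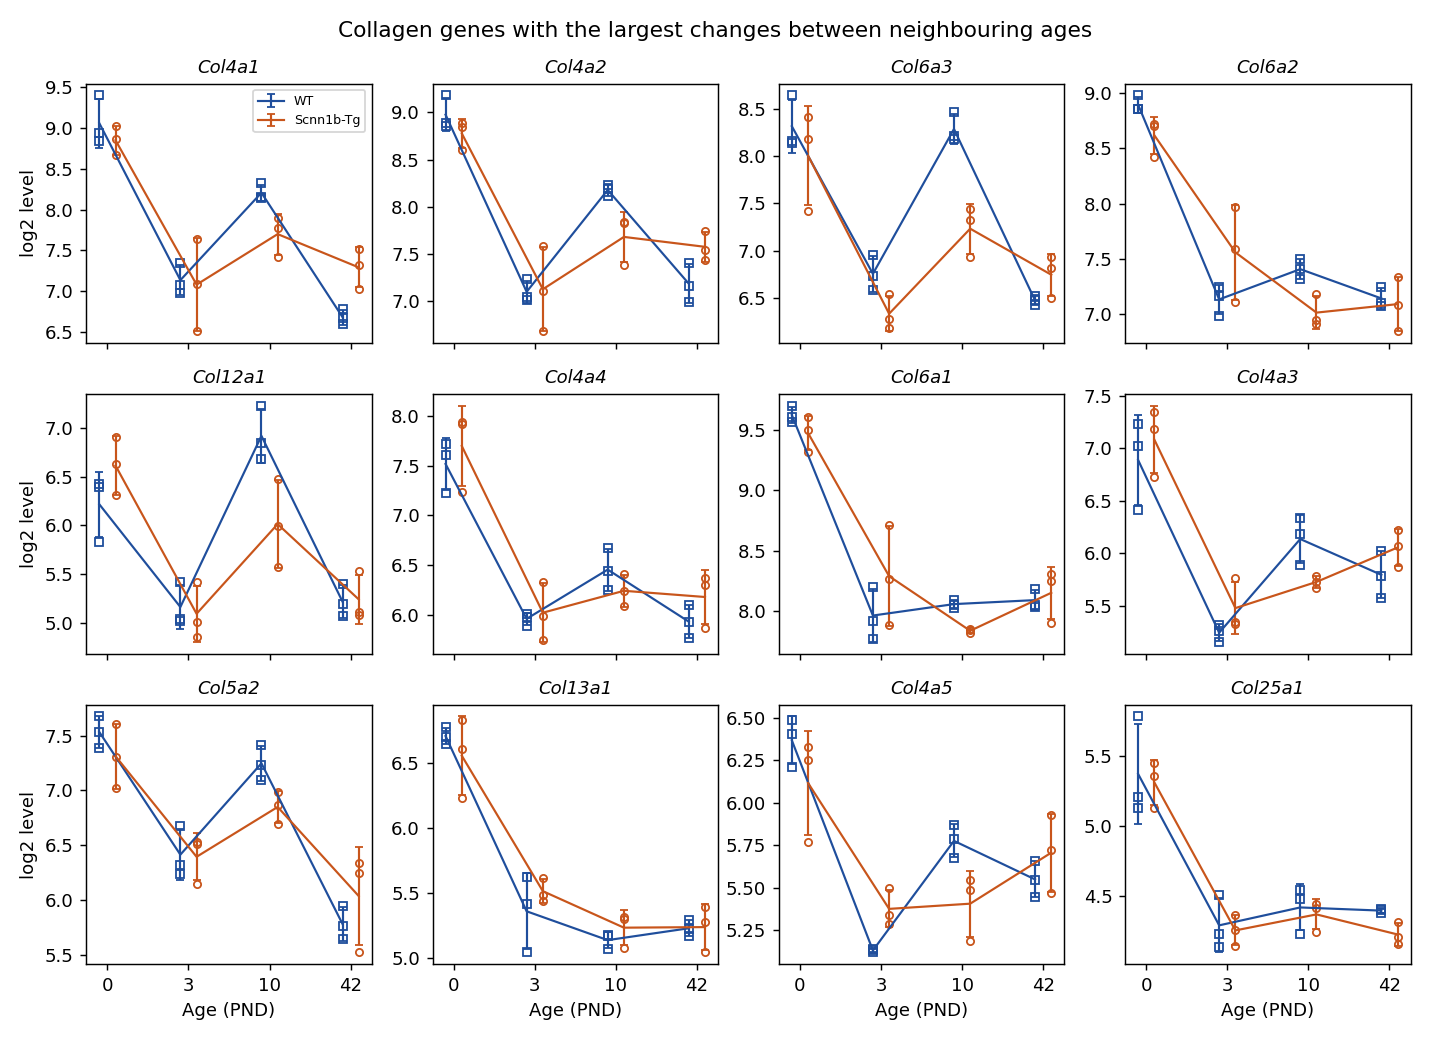
Normalized log2 level (vertical axis, a scale of its own for each gene) against age in PND for the 12 collagen genes called in at least 1 interval; squares are WT arrays, circles *Scnn1b*-Tg arrays, lines join group means and bars are SD (n = 3). The mean of each of the 12 genes is lower at PND 3 than at PND 0 in both genotypes, and in WT *Col4a1*, *Col4a2*, *Col6a3* and *Col12a1* are higher at PND 10 than at PND 3, while *Col6a1* and *Col13a1* stay near their PND 3 level.

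From PND 3 to PND 10, when septation is under way, 4 collagen genes rose in WT and none fell, against 1.05% of all rows that rose. They were *Col12a1*, *Col6a3*, *Col4a2* and *Col4a1*. The median change of the 44 genes was 0.12, beside -0.01 over all rows. Without regard to fold 12 passed the adjusted p (5.03% of all rows), among them *Col1a1* (0.96, adjusted p = 0.00514), *Col1a2* (0.92, adjusted p = 0.00208), *Col4a5* (0.65, adjusted p = 0.0062) and *Col5a2* (0.83, adjusted p = 0.00841), each under 2-fold. The WT arrays of PND 10 lay wholly above those of PND 3 for 18 genes (11.6% of all rows) and wholly below for 1 (11.8%).

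*Col12a1* showed the largest of these rises. Its WT arrays reached 6.84, 7.23 and 6.68 at PND 10, above every WT array of PND 0 and PND 3 (1.76 ± 0.22, adjusted p = 5.32e-05). *Col6a3* reached 8.22, 8.47 and 8.18, back within the range of PND 0 (1.54 ± 0.20, adjusted p = 7.75e-05). *Col4a1* had 8.15, 8.32 and 8.14 (1.07 ± 0.21, adjusted p = 0.00259) and *Col4a2* had 8.19, 8.23 and 8.11 (1.08 ± 0.17, adjusted p = 0.000432). For both type IV chains the PND 10 arrays lay between those of PND 3 and PND 0, overlapping neither. Leaving out WT PND 3 replicate 3 raised the number of calls from 4 to 7, with *Col1a1*, *Col1a2* and *Col3a1* added, and leaving out WT PND 10 replicate 1 gave 6.

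In *Scnn1b*-Tg lung no collagen gene was called from PND 3 to PND 10 by limma, against 1.09% of all rows in either direction. At an unadjusted p under 0.05 there were 13 (14.3% of all rows), and at the adjusted p without regard to fold 4 (3.27% of all rows). *Col6a3* had a change of 0.90 ± 0.20 (adjusted p = 0.0139) and *Col12a1* one of 0.92 ± 0.22 (adjusted p = 0.022), both under 2-fold. The *Scnn1b*-Tg arrays of PND 10 lay wholly above those of PND 3 for 11 collagen genes (9.49% of all rows) and wholly below for 3 (10.4%). An ordinary linear model without limma's moderation called 0 as well. The result turned on single arrays: without *Scnn1b*-Tg PND 10 replicate 1, the library that stood apart, *Col6a3* and *Col12a1* were both called, *Col12a1* was called without *Scnn1b*-Tg PND 3 replicate 1, and *Col6a3* without *Scnn1b*-Tg PND 3 replicate 2. The difference between the genotypes in this change was called for 0 collagen genes (0.00918% of all rows), with 9 at an unadjusted p under 0.05 (6.64% of all rows) and 0 in the ordinary linear model. Its smallest p-values belonged to *Col6a2* (-0.82, adjusted p = 0.481), *Col4a5* (-0.62, adjusted p = 0.55) and *Col6a6* (-0.46, adjusted p = 0.574). The other row of *Col6a6* changed by 0.10 in WT and by -0.07 in *Scnn1b*-Tg.

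From PND 10 to PND 42, 4 collagen genes fell in WT and none rose, against 3.84% of all rows that fell. *Col6a3* dropped from 8.22, 8.47 and 8.18 to 6.42, 6.52 and 6.47 (-1.82 ± 0.20, adjusted p = 8.85e-07). *Col12a1* dropped from 6.84, 7.23 and 6.68 to 5.19, 5.06 and 5.40 (-1.70 ± 0.22, adjusted p = 6.17e-06). *Col4a1* dropped to 6.78, 6.66 and 6.59 (-1.53 ± 0.21, adjusted p = 1.09e-05), and *Col5a2* from 7.23, 7.42 and 7.09 to 5.64, 5.76 and 5.95 (-1.46 ± 0.19, adjusted p = 4.61e-06). None of the 4 overlapped between these ages, and *Col6a3*, *Col4a1* and *Col12a1* had also risen from PND 3 to PND 10. The median over the 44 genes was -0.05, beside -0.03 over all rows, and 16 passed the adjusted p without regard to fold (30.4% of all rows), with *Col4a2* at -0.995 (adjusted p = 0.000151) just under 2-fold.

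In *Scnn1b*-Tg no collagen gene was called from PND 10 to PND 42, against 5.17% of all rows in either direction, with 9 at an unadjusted p under 0.05 (39.5% of all rows), 7 at the adjusted p without regard to fold (29.8% of all rows) and 0 in the ordinary linear model. *Col5a2* had a change of -0.81 (adjusted p = 0.0019), *Col12a1* one of -0.77 (adjusted p = 0.0104), *Col14a1* one of 0.65 (adjusted p = 0.0253) and *Col6a3* one of -0.49 ± 0.20 (adjusted p = 0.0721). The *Scnn1b*-Tg arrays of *Col6a3* were 6.93, 7.44 and 7.32 at PND 10 and 6.49, 6.81 and 6.93 at PND 42. Before rounding, every PND 42 array lay below every PND 10 array, though the nearest both round to 6.93.

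**Figure D2:**
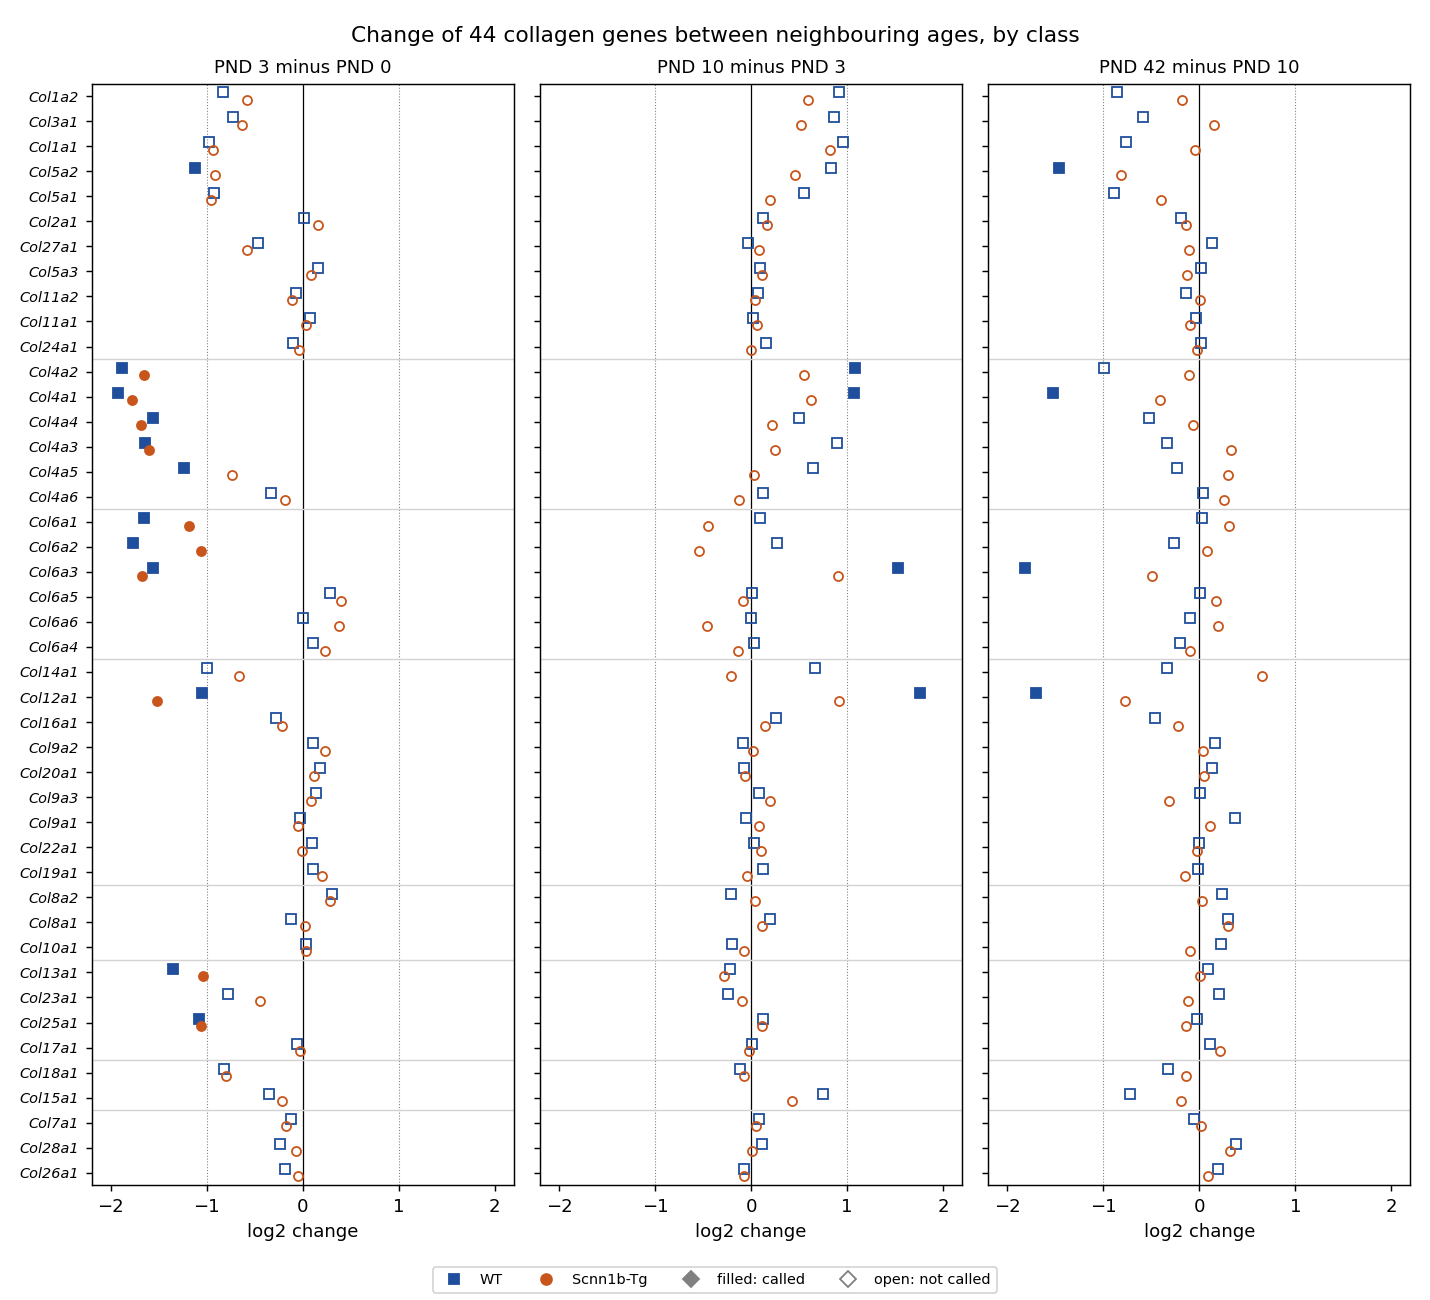
Log2 change (horizontal axis) of the 44 collagen genes over 3 age intervals, grouped by grey lines into fibrillar, type IV, beaded-filament, fibril-associated, network-forming short-chain, transmembrane, multiplexin and other collagens from top to bottom; squares are WT, circles *Scnn1b*-Tg, filled symbols are called and dotted lines mark 2-fold. In WT 12 genes are called lower from PND 0 to PND 3, 4 higher from PND 3 to PND 10 and 4 lower from PND 10 to PND 42, while in *Scnn1b*-Tg 10, 0 and 0 are called.

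The 3 intervals combine into a course that many collagen genes shared. The WT mean of PND 3 lay below those of both PND 0 and PND 10 for 25 of the 44 genes (56.8%, against 25.8% of all rows) and in *Scnn1b*-Tg for 22 (50% against 24.2%). The full course of down, up and down was followed by the means of 19 genes in WT (43.2% against 15.9%) and of 15 in *Scnn1b*-Tg (34.1% against 13.5%). These shares count means, with no threshold on size, and were not tested. The PND 3 mean enters both changes of such a count.

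Compared directly with PND 0, 11 collagen genes were lower in WT at PND 42 and none higher, against 9.73% of all rows that were lower. *Col4a1* had fallen furthest, by 2.38 ± 0.21 log2 or 5.22-fold (adjusted p = 1.28e-08). *Col18a1*, which encodes the basement membrane collagen whose end fragment is endostatin, was called here without being called in any single interval. Its WT arrays were 6.19, 5.97 and 6.04 at PND 0 and 4.85, 4.8 and 4.75 at PND 42 (-1.27 ± 0.11, adjusted p = 1.78e-08), with PND 3 and PND 10 in between. *Col5a1* was likewise called only over the whole period, from 6.19, 6.45 and 6.53 to 5.15, 5.09 and 5.16 (-1.26 ± 0.13, adjusted p = 1.01e-07). In *Scnn1b*-Tg 13 genes were lower at PND 42 than at PND 0 and none higher, against 8.7% of all rows, *Col18a1* (-1.01), *Col5a1* (-1.17) and *Col12a1* (-1.37) among them. When quantile normalization was repeated on the deposited values, the *Scnn1b*-Tg count was 7.

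Chains that are assembled into the same molecule did not all have equal mean changes, but no difference between chains passed an adjusted p of 0.05. With 3 arrays against 3, the permutation test described below could not have reached it. The change of *Col6a3* minus that of *Col6a1* was 0.09 ± 0.27 log2 in WT from PND 0 to PND 3, where the groups overlapped. From PND 3 to PND 10 it was 1.44 ± 0.26 in WT and 1.35 ± 0.28 in *Scnn1b*-Tg, and from PND 10 to PND 42 it was -1.85 ± 0.11 and -0.80 ± 0.15. The ratio of the chains did not overlap between the ages in any of these 4 comparisons. *Col6a1* itself had 8.05, 8.03 and 8.10 in WT at PND 10 and 8.04, 8.19 and 8.05 at PND 42, while *Col6a3* moved as given above. Against *Col6a2*, *Col6a3* changed by 1.26 more in WT from PND 3 to PND 10 and by -1.55 from PND 10 to PND 42.

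Other partner chains also differed in places. The largest of these differences was between *Col4a5* and *Col4a3* in *Scnn1b*-Tg from PND 0 to PND 3, where *Col4a5* changed by 0.86 ± 0.09 relative to *Col4a3*, without overlap; in WT it was 0.41 ± 0.30, with overlap. *Col4a1* changed by -0.53 ± 0.08 relative to *Col4a2* in WT from PND 10 to PND 42, *Col5a1* by 0.58 ± 0.10 relative to *Col5a2* in the same interval, and *Col4a3* by 0.40 ± 0.06 relative to *Col4a4* from PND 3 to PND 10. *Col1a1* and *Col1a2*, which lie on different chromosomes, differed from PND 0 to PND 3 by -0.14 ± 0.03 in WT and by -0.36 ± 0.04 in *Scnn1b*-Tg, and from PND 3 to PND 10 by 0.04 ± 0.06 and 0.22 ± 0.06. An exact permutation test (two-sided) of 3 arrays against 3 cannot go below p = 0.1, and the smallest adjusted p over the 96 comparisons of 8 pairs was 0.209, so none of these differences passed. *Col4a1* and *Col4a2*, *Col4a3* and *Col4a4*, *Col4a5* and *Col4a6*, and *Col6a1* and *Col6a2* are each next to each other in the genome.

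Between the genotypes, no collagen gene was called at PND 0 (0.0138% of all rows), PND 3 (0.0184%) or PND 42 (0.34%). At an unadjusted p under 0.05 the numbers were 0, 4 and 3 (4.54%, 7.35% and 10.3% of all rows), and the ordinary linear model called 0 at each of these ages. The smallest p-values at PND 0 belonged to *Col1a2* (-0.32), *Col4a5* (-0.25) and *Col12a1* (0.40), each with an adjusted p of 1. At PND 3 they belonged to *Col6a2* (0.43), *Col6a6* (0.26) and *Col6a1* (0.33), with adjusted p between 0.564 and 0.662. *Col6a6* had no group mean above 5 log2, and its other row had a difference of -0.03. At PND 42 they belonged to *Col9a3* (-0.27, adjusted p = 0.217), *Col4a1* (0.61, adjusted p = 0.236) and *Col4a2* (0.39, adjusted p = 0.43). The *Scnn1b*-Tg arrays of *Col4a1* at PND 42 (7.03, 7.52 and 7.32) were all above the WT arrays (6.78, 6.66 and 6.59), as were those of *Col4a2*. These were the 2 collagen genes wholly above WT at that age (6.67% of all rows). Wholly below WT were 3 (4.06% of all rows), *Col9a3*, *Col25a1* and *Col27a1*.

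At PND 10 the collagen genes were lower in *Scnn1b*-Tg lung for 1 called gene, *Col6a3*, against 0.0459% of all rows called lower. *Col6a3* had 8.22, 8.47 and 8.18 in WT and 6.93, 7.44 and 7.32 in *Scnn1b*-Tg. The highest *Scnn1b*-Tg array was below the lowest WT array, and the difference was -1.06 ± 0.20 log2, or 2.08-fold (adjusted p = 0.017). It did not hold as a call without *Scnn1b*-Tg PND 10 replicate 1 (-0.91, adjusted p = 0.218), without WT PND 10 replicate 1 (adjusted p = 0.0714), without WT PND 10 replicate 2 (adjusted p = 0.14) or without limma's moderation (adjusted p = 0.0683). Without *Scnn1b*-Tg PND 10 replicate 2, *Col12a1* was called as well (-1.14). With array weights the *Col6a3* difference was just under 2-fold (-0.96, adjusted p = 0.00471). The chains *Col6a1* (8.05, 8.03 and 8.10 in WT, 7.82, 7.84 and 7.85 in *Scnn1b*-Tg) and *Col6a2* (7.40, 7.32 and 7.49 against 6.90, 6.94 and 7.18) were also apart at PND 10 but were not called, and *Col6a3* differed by -0.84 ± 0.18 more than *Col6a1*.

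Many other collagen genes lay on the same side at this age. The arrays of *Scnn1b*-Tg were wholly below those of WT for 16 of the 44 genes and wholly above for 0, against 8.58% and 8.67% of all rows. The 16 were *Col1a1*, *Col1a2*, *Col3a1*, *Col4a1*, *Col4a2*, *Col4a3*, *Col4a5*, *Col4a6*, *Col5a1*, *Col5a2*, *Col6a1*, *Col6a2*, *Col6a3*, *Col12a1*, *Col14a1* and *Col15a1*. *Col12a1* had 6.84, 7.23 and 6.68 in WT and 5.57, 6.47 and 5.99 in *Scnn1b*-Tg (-0.91 ± 0.22, adjusted p = 0.0773), a difference of -0.69 without *Scnn1b*-Tg PND 10 replicate 1 (adjusted p = 0.614). *Col14a1* had 7.45, 7.50 and 7.51 against 6.79, 6.74 and 6.58 (-0.79 ± 0.21, adjusted p = 0.122), and -0.83 without that array (adjusted p = 0.453). *Col1a1* had 9.76, 9.95 and 9.86 against 9.45, 9.49 and 9.65. These differences did not pass the adjusted p.

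By class, all 6 type IV genes had lower means in *Scnn1b*-Tg at PND 10 (median -0.39, or -0.30 without replicate 1), and so had all 6 beaded-filament genes (median -0.21, or -0.20 without replicate 1). Over the 44 genes 29 had lower means (65.9%, against 50.7% of all rows), with a median of -0.05. Lower means were not particular to PND 10: at PND 0 there were 32 of 44 (72.7%, against 55.1% of all rows, median -0.07), with 4 of the 6 type IV genes and all 6 beaded-filament genes among them. At PND 3 there were 21 of 44, with 1 of 6 in each of these classes, and at PND 42 17 of 44, also with 1 of 6 in each. These counts of means have no threshold on size and were not tested. With each PND 10 array left out in turn, 17 to 18 genes were wholly below and 0 to 6 wholly above, but groups of fewer arrays part more easily, and the shares of all rows went up to 12.2 to 15.4% below and 12 to 14.1% above. Without *Scnn1b*-Tg PND 10 replicate 1 the counts were 17 and 3, where 12.2% of all rows were wholly below and 13.9% wholly above.

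**Figure D3:**
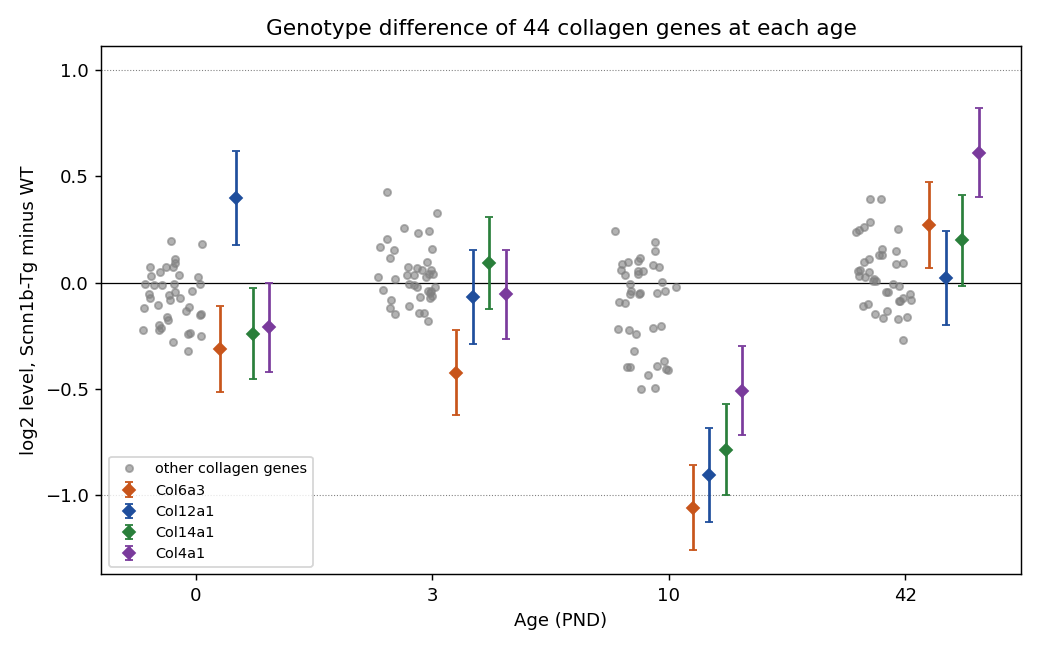
Difference between *Scnn1b*-Tg and WT in log2 level (vertical axis) of the 44 collagen genes at each age in PND; diamonds with SE bars are *Col6a3*, *Col12a1*, *Col14a1* and *Col4a1*, grey points the other genes, with horizontal scatter added to part them, and dotted lines mark 2-fold. At PND 10 *Col6a3* (-1.06), *Col12a1* (-0.91) and *Col14a1* (-0.79) lie furthest below 0, and at PND 42 *Col4a1* (0.61) lies furthest above.

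The change from PND 10 to PND 42 differed between the genotypes for *Col6a3* alone among the collagen genes (1.33 ± 0.28 log2 in *Scnn1b*-Tg minus WT, adjusted p = 0.0453), against 0.193% of all rows called in this direction. The difference combines a smaller level at PND 10 with a level at PND 42 that was not called different. *Col4a1* (1.12 ± 0.29, adjusted p = 0.118) and *Col4a2* (0.89, adjusted p = 0.134) had the next smallest p-values and did not pass. The *Col6a3* value lay near the threshold: for 15 of the 24 arrays, removing that array took the adjusted p above 0.05 (up to 0.16), with estimates between 1.18 and 1.45. For the change from PND 0 to PND 3 no collagen gene was called (0% of all rows), with 4 at an unadjusted p under 0.05 (4.75%) and 0 in the ordinary linear model. *Col6a2* (0.71), *Col4a5* (0.50) and *Col6a6* (0.37) had the smallest p-values there, each with an adjusted p of 0.998. The other row of *Col6a6* changed by 0.06 in WT and by 0.02 in *Scnn1b*-Tg.

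Genes that make, cross-link and take up collagen followed partly different courses. Of 19 measured genes for modification and folding, *P4ha1*, a subunit of the prolyl hydroxylase that stabilises the triple helix, fell in WT from PND 0 to PND 3 (-1.11, adjusted p = 5.37e-05). In *Scnn1b*-Tg *Plod2*, a lysyl hydroxylase, fell in that interval (-1.17). *Plod2* (1.03, adjusted p = 2.18e-05) and *P4ha3* (1.06, adjusted p = 0.00247) rose in WT from PND 3 to PND 10. From PND 10 to PND 42 *P4ha3* (-2.11, adjusted p = 1.63e-07), the prolyl 3-hydroxylase *P3h1* (-1.28, adjusted p = 2.23e-07) and the collagen chaperone *Serpinh1* (-1.25, adjusted p = 1.04e-05) fell in WT. In *Scnn1b*-Tg these 3 fell in the same interval (-1.79, -1.13 and -1.26), together with *Crtap* (-1.24) and *Fkbp14* (-1.13), whereas no collagen gene was called there. None of the 19 genes was called between the genotypes.

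Among 12 measured genes for processing and cross-linking, *Lox*, the lysyl oxidase that starts the cross-links, fell in WT from PND 0 to PND 3 (-1.31, adjusted p = 0.000782) and from PND 10 to PND 42 (-1.03). *Bmp1*, which cuts the carboxyl propeptide from fibrillar procollagen, fell from PND 10 to PND 42 by 1.64 in WT (adjusted p = 1.06e-09) and by 1.01 in *Scnn1b*-Tg. *Pcolce2*, an enhancer of that cut, rose by 1.05 in WT. Of 17 genes for export and regulation, *Ddr2*, a kinase receptor for fibrillar collagen that is also in the receptor list, rose from PND 3 to PND 10 in WT (1.34) and in *Scnn1b*-Tg (1.02), and again from PND 10 to PND 42 in *Scnn1b*-Tg (1.07). The other calls of this list in the 3 intervals were falls: *Mia2*, an export receptor of the endoplasmic reticulum, fell in WT from PND 0 to PND 3 (-1.05), its relative *Mia3* in *Scnn1b*-Tg (-1.01), and *Scx*, a tendon transcription factor, fell from PND 10 to PND 42 in both (-1.11 and -1.06).

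The collagen receptors and uptake genes (11 measured) included some that rose beside the collagen genes. From PND 3 to PND 10 *Itga1* (1.55), *Mrc2* (1.51), *Ddr2* (1.34) and *Itga2* (1.15) rose in WT, the first and last being collagen-binding integrin chains and *Mrc2* being an endocytic receptor. In *Scnn1b*-Tg *Itga1* (1.54), *Mrc2* (1.23), *Ddr2* (1.02) and *Ctsk* (1.35) rose. From PND 0 to PND 3 *Itga1* (-1.05), *Itga2* (-1.29) and *Mrc2* (-1.44) had fallen in WT, while *Ctsk* had risen (1.22). In *Scnn1b*-Tg these genes had changed likewise (-1.54, -1.72, -1.52 and 1.54). From PND 10 to PND 42 *Itga2* (-1.34) and *Mrc2* (-1.56) fell again in WT. *Ctsk* encodes cathepsin K, a protease that degrades collagen and is also made by macrophages. Its arrays at PND 42 were 6.08, 5.91 and 5.97 in WT and 9.38, 9.52 and 8.87 in *Scnn1b*-Tg, a difference of 3.27 (adjusted p = 3.87e-09), and the groups were far apart at that age. *Ctsk* was also called higher in *Scnn1b*-Tg at PND 10 (1.255), a call lost in 2 of 35 alternatives. The change of *Ctsk* from PND 10 to PND 42 differed between the genotypes by 2.02 ± 0.30 (adjusted p = 0.00187), and that of *Itga2* by 1.17 ± 0.25 (adjusted p = 0.045). This *Itga2* call was lost in 18 of 35 alternatives (adjusted p up to 0.161), this *Ctsk* call in 0 of 35. At PND 10 itself *Itga2* differed by -0.88 (adjusted p = 0.0221, under 2-fold). Without *Scnn1b*-Tg PND 10 replicate 1 that difference was -0.75 (adjusted p = 0.282). The mean of the leukocyte markers at PND 42 was 7.77 to 8.44 in *Scnn1b*-Tg and 7.40 to 7.58 in WT arrays, and its part in the *Ctsk* difference was not tested.

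Of 9 markers of mesenchymal cells, 2 moved in the same direction as the called collagen genes over the first 2 intervals in WT. *Pdgfrb*, a receptor of pericytes and fibroblasts, fell in WT from PND 0 to PND 3 (-1.57, adjusted p = 1.53e-08) and rose from PND 3 to PND 10 (1.35, adjusted p = 3.38e-06). *Pdgfra*, a fibroblast receptor, did likewise (-1.44, adjusted p = 5.25e-05, and 1.26, adjusted p = 0.0024). The list as a whole did not follow them: from PND 3 to PND 10 in WT, 3 of the 9 markers had positive and 6 negative changes (median -0.11), while from PND 0 to PND 3 6 of the 9 were negative (median -0.43). At PND 10 *Pdgfrb* was 8.79, 8.73 and 8.52 in WT and 7.58, 8.12 and 7.90 in *Scnn1b*-Tg (-0.81, adjusted p = 0.00477, under 2-fold), and *Pdgfra* differed by -0.85 (adjusted p = 0.143). Without *Scnn1b*-Tg PND 10 replicate 1 the differences were -0.67 for *Pdgfrb* (adjusted p = 0.0601) and -0.69 for *Pdgfra* (adjusted p = 0.747). These values at PND 10 were picked out after they had been seen.

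The mean of all 9 mesenchymal markers lay at 7.30 to 7.47 in WT arrays of PND 0, 6.88 to 7.07 at PND 3, 7.06 to 7.22 at PND 10 and 6.47 to 6.75 at PND 42. In *Scnn1b*-Tg at PND 10 it was 6.81 to 7.07, or 6.96 to 7.07 without replicate 1, which overlaps WT in both cases. The mean of the 8 endothelial markers was 8.98 to 9.31, 8.17 to 8.32, 8.84 to 8.96 and 8.55 to 8.87 in WT over the same ages, and 8.39 to 8.69 in *Scnn1b*-Tg at PND 10 (8.6 to 8.69 without replicate 1), below all WT arrays of that age. Of the endothelial genes, *Kdr* (-1.57) and *Cdh5* (-1.48) fell in WT from PND 0 to PND 3. Other lists lay higher in *Scnn1b*-Tg at PND 10. The mean of the 9 leukocyte markers was 7.22 to 7.40 in *Scnn1b*-Tg and 6.99 to 7.10 in WT. That of the 5 mesothelial markers was 6.90 to 7.02 and 6.23 to 6.60. Both stayed wholly above WT without replicate 1. With all arrays, the remaining marker lists overlapped between the genotypes at that age. The part of these cell types in the collagen changes was not tested.

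The span of a gene also moved with the first interval. Among 19856 genes with a RefSeq span, the median WT change from PND 0 to PND 3 was 0.21, 0.15, 0.06, -0.09 and -0.3 log2 from the shortest to the longest of 5 equal span classes, and 18.8% of the genes in the longest class were called lower. That class (59508 to 2390387 bases) held 28 of the 44 collagen genes, of which 10 were called lower, with a median of -0.63. *Col6a1* and *Col6a2*, the other genes that fell, have shorter spans. The part of gene span in the collagen result was not tested.

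**Figure D4:**
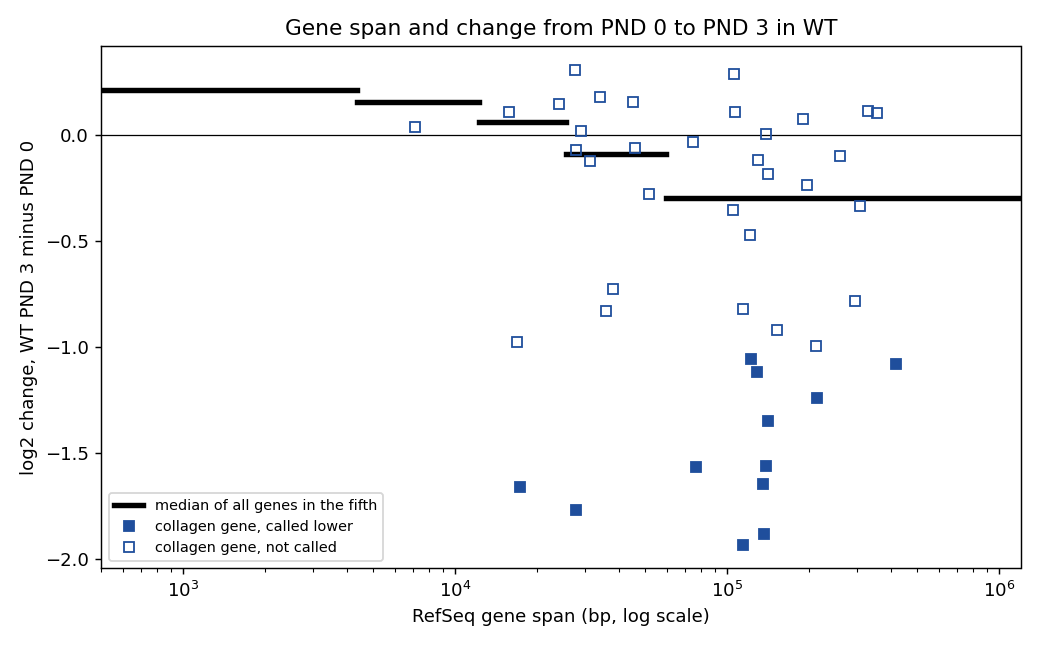
Log2 change of WT lung between PND 0 and PND 3 (vertical axis) against RefSeq gene span in bp (horizontal axis, log scale) for the collagen genes; filled squares are called lower, open squares are not called, and black bars are the median of all genes in each of 5 equal span classes. The bars go from 0.21 in the shortest to -0.3 in the longest class, which holds 10 of the 12 called collagen genes.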

How the data were processed

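Whole lung RNA of 24 samples was measured with Affymetrix arrays (Mouse Gene 1.0 ST). The deposited values are log2 intensities, per the labels made with Partek (6.5 in the submitters' processing notes) and RMA; the authors' methods name GC and sequence adjustment, quantile normalization and median polish. Arrays give no read counts, and the number of arrays limits the precision. Of 35556 rows, 1621 with several genes and 12146 without a gene were left out. Groups came from the sample titles. A linear model of the 8 groups was fitted with limma 3.58.1 (R 4.3.3, statmod 1.5.0) with moderated variances (16 residual and 5.37 prior degrees of freedom), and p-values were adjusted by Benjamini-Hochberg over 21789 rows in each of 15 contrasts. Tables, exact permutation tests and figures used Python 3.11.15, pandas 2.3.3, SciPy 1.17.1 and matplotlib 3.10.9. The fit was tested on simulated data.

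Named genes were every collagen gene called in any contrast, partner chains of one molecule, the 3 smallest p-values of each genotype contrast, up to 4 called members of each other list per contrast, and *Scnn1b*. The collagen members and the other lists were chosen with earlier results of these data known. Alternatives were other variance models, array weights, a replicate block, other row filters, renormalization, fold thresholds and leaving out each array. Replicate numbers in the titles were checked for pairing: correlations of same-numbered deviations ran from -0.255 to 0.299, and every pair exceeded 0.1 in 2 of 12 contrasts. RefSeq spans were found for 19856 of 19938 genes.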

Additional observations from a re-analysis of the deposited data

Results flagged for a closer look

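The change from PND 10 to PND 42 differed between the genotypes, by the interaction contrast of the fit, for 1 collagen gene and 2 genes of the receptor and uptake list. For *Col6a3* it was 1.33 log2 higher in *Scnn1b*-Tg than in WT. For *Ctsk* the difference was 2.02 and for *Itga2* 1.17. The call was lost in 19 of 35 alternatives for *Col6a3*, in 18 for *Itga2* and in 0 for *Ctsk*.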

How the results depend on the processing

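None of the 149 single-gene results, of collagen and other listed genes, reversed its direction under any alternative. Genes outside these results were not followed, and counts were compared by size only. Without the fold threshold, the collagen calls became 21, 12, 16 and 26 in WT (PND 0 to 3, 3 to 10, 10 to 42 and PND 42 against 0) and 22, 4, 7 and 21 in *Scnn1b*-Tg. At 1.5-fold they were 19, 11, 9 and 18 in WT and 17, 3 and 3 in the *Scnn1b*-Tg intervals. Array weights gave 1 call in *Scnn1b*-Tg from PND 3 to PND 10 and 0 between genotypes at PND 10. Without variance moderation, 0 genes were called between genotypes at PND 10 and 0 in the interval difference from PND 10 to PND 42. That interval difference also gave 0 with all rows tested, with quantile normalization repeated and with array medians subtracted, and 2 with only the compared arrays. Repeated quantile normalization gave 7 calls in *Scnn1b*-Tg at PND 42 against PND 0. The cause was not tested.

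Leaving out each array in turn gave 11 to 16, 3 to 7, 4 to 5 and 10 to 12 calls in WT, and 8 to 13, 0 to 2, 0 to 0 and 11 to 13 in *Scnn1b*-Tg. Between genotypes it gave 0 to 0 at PND 0, PND 3 and PND 42 and 0 to 2 at PND 10, and for the interval differences 0 to 0, 0 to 0 and 0 to 2. The 16 genes without overlap at PND 10 became 17 to 18 with 1 array fewer, in an alternative chosen after seeing the data, while the share of all rows went from 8.58% to 12.2 to 15.4%. Class medians and marker values at PND 10 without *Scnn1b*-Tg replicate 1 were also added after seeing the data. For single genes, 5061 alternatives kept direction and side of the threshold, 144 lost the call and 8 gained it, over 149 results.

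With the replicate number as a block, the counts were 12, 4, 4 and 11 in WT, 10, 0, 0 and 13 in *Scnn1b*-Tg, 1 between genotypes at PND 10 and 1 for the interval difference from PND 10 to PND 42, and the block changed no other call. Of all rows called between PND 0 and PND 3 in WT, 427 of 2124 were higher, against 696 of 1734 with repeated quantile normalization and 594 of 1975 with array medians subtracted, and the former left 8 collagen calls (*Col4a5*, *Col5a2*, *Col12a1* and *Col25a1* lost) and 7 in *Scnn1b*-Tg. Subtracting medians moved the median of all rows in *Scnn1b*-Tg from 0.07 to 0.21 in that interval. Pools of several mice, 3 arrays per group and the dim level of 20 of the 44 genes limit what could be detected.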
